A study of Mus musculus with 24 samples.

Results

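Messenger RNA levels of 10 genes of MHC class II presentation were followed in mouse colon during T cell transfer colitis. The members were chosen by name, with earlier results of these data known: Cd74, H2-Aa, H2-Ab1, H2-Eb1, H2-DMa, H2-DMb1, H2-DMb2, H2-Oa, H2-Ob and Ciita. All 10 were among the 43280 gene symbols counted, and all 10 passed the filter on low counts that left 14773 genes for testing. Poly(A) RNA of the distal colon was counted in 24 libraries, 4 in each of 6 groups. The hosts were female mice of the strain C.B-17/Icr-scid/scid, 7 weeks old at purchase, whose scid mutation stops the maturation of T and B lymphocytes. Mice of 5 groups received CD4+ T cells of female BALB/c spleens, activated with concanavalin A and recombinant human IL-2, and their colons were taken on day 28. Vehicle mice were given 0.5% methylcellulose. MEKi 0.3 and MEKi 1 mice were given enteric microparticles of an inhibitor of MEK, the kinase that activates ERK, by mouth once daily from day 17 to day 27 at 0.3 or 1 mg/kg. Anti-TNF and Isotype mice were injected every 4 days from day 17 with 0.1 mg of an antibody to TNFα or of its isotype control. Normal mice were untreated scid mice that received no T cells, so that a difference between Vehicle and Normal holds both the transfer and the dosing with methylcellulose. The scid host keeps its macrophages, dendritic cells, innate lymphoid cells and epithelium, and the graft was CD4+ T cells.

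MHC class II molecules carry peptides from the endosomes of a cell to its surface, where CD4+ T cells read them. The α and β chains (H2-Aa and H2-Ab1 for H2-A, H2-Eb1 for H2-E) assemble around the invariant chain Cd74, whose remnant CLIP fills the groove until H2-DM exchanges it for peptide. H2-O restrains H2-DM and is known mainly from B cells. Dendritic cells, macrophages and B cells express these genes constitutively, and intestinal epithelium does so after exposure to interferon-γ, which acts, in part through IRF1, on the transactivator gene Ciita. CIITA does not bind DNA itself but docks on the RFX, NF-Y and CREB proteins that sit on the X and Y boxes of class II promoters.

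In the mm10 build 8 of the genes lie in the class II region of chromosome 17 by the GENCODE M21 annotation, from H2-Oa (chr17:34092340-34095234, plus strand) to H2-Eb1 (chr17:34305867-34316674, plus strand). H2-Aa (chr17:34282744-34287823) is on the minus strand. The start site windows below, 250 bases before to 50 after the RefSeq start in GRCm38.p6, are shown because 3 of them belong to genes with strong changes (H2-Aa, H2-Eb1, H2-DMb1) and 2 to the H2-O genes, whose changes were smaller. Windows were available for 7 of the 10 members, and those of H2-DMa and H2-DMb2, which also changed strongly, are not shown. Capitals mark matches to ATTGG, the core of the Y box (CCAAT on the other strand), and to a form of the X box, read as TAG, any base, AAC, any 2 bases, ATG. The letters of the X box form were chosen after these windows had been seen.
H2-Aa (chr17:34287774-34288073, minus strand): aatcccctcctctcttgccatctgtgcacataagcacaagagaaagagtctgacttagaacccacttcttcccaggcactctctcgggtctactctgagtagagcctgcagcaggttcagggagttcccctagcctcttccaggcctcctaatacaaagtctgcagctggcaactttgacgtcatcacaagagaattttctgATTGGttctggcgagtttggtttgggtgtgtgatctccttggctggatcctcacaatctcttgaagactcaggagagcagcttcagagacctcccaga
H2-Eb1 (chr17:34305617-34305916, plus strand): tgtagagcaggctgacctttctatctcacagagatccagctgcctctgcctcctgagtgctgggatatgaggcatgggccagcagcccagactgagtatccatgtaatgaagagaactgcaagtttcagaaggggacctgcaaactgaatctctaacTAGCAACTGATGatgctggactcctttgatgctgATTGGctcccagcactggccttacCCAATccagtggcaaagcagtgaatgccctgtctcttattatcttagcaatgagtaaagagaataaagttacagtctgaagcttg
H2-DMb1 (chr17:34152941-34153240, plus strand): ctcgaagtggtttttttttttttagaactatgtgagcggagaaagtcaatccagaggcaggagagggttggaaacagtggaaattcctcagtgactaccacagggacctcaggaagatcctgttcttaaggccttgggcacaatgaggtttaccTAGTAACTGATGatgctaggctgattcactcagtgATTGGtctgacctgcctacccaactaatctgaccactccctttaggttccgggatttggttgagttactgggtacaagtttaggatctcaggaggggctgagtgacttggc
H2-Oa (chr17:34092129-34092428, plus strand): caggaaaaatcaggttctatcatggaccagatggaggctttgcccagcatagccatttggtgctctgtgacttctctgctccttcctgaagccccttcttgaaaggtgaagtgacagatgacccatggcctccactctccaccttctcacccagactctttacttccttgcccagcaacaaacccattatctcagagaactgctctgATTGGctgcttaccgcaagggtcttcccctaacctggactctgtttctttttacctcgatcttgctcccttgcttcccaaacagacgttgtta
H2-Ob (chr17:34238655-34238954, plus strand): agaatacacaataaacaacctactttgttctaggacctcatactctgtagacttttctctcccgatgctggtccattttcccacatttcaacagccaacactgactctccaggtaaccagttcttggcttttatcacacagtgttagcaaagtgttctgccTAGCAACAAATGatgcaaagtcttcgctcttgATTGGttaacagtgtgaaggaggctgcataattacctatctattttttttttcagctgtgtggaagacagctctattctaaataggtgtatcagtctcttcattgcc

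The X box form stood at -96 relative to the start site in H2-DMb1, at -93 in H2-Eb1 and at -89 in H2-Ob. In those windows 23, 22 and 20 bases separated it from the Y box core downstream, in that order. H2-Aa and H2-Oa held the Y box core only. The windows of H2-DMa and H2-DMb2, not shown, held no X box form. H2-DMb2 held the Y box core, and H2-DMa had a window with that core and another without it. Searched on both strands of all 32851 RefSeq windows, ATTGG was found in 37.4%, the X box form in 0.177% and both in 0.0761%. H2-Ob carried both matches, as did H2-Eb1 and H2-DMb1. A match is a description of the letters in these windows, and a missing match says nothing about binding. A relation between these letters and the changes in level was not tested.

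Library totals ran between 4102817 and 5271844 counts for Vehicle, between 4034493 and 5840995 for MEKi 0.3, between 3175698 and 4678256 for MEKi 1, between 6974099 and 8545019 for anti-TNF, between 6139216 and 10587555 for Isotype and between 3052940 and 5358259 for Normal. Levels are given as TMM-scaled CPM (counts relative to the library total), and per kilobase of the longest coding transcript where genes are compared with each other. Pancreas transcripts, from tissue that is no part of the colon, summed to 5782 CPM in Vehicle replicate 4 and 4469 CPM in Isotype replicate 1 and stayed below 1000 CPM in the other 22 libraries. Of Cd3d, Cd3e and Cd3g, which encode the T cell receptor's CD3 chains, the libraries labelled Vehicle held 146 to 227 counts in all and those labelled Normal 0 to 2.

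The 10 genes together held 0.847 to 1.08% of all counts in Vehicle libraries and 0.0870 to 0.108% in Normal libraries. Per kilobase, Cd74 was the highest in Vehicle, with a mean of 2966 CPM per kb, followed by H2-Aa at 1645, H2-Ab1 at 1306, H2-Eb1 at 818, H2-DMa at 102, H2-DMb1 at 88.4, H2-DMb2 at 80.1, Ciita at 11.2, H2-Oa at 5.03 and H2-Ob at 0.641 CPM per kb. In that order the library ranges of H2-Aa and H2-Ab1 overlapped, as did those of H2-DMa and H2-DMb1 and of H2-DMb1 and H2-DMb2. The other neighbours did not overlap. The mRNA of the transactivator was far below that of the chains and chaperones, and H2-Ob was read by 34 counts in all 4 Vehicle libraries together, against 79551 for Cd74.

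**Figure D1:**
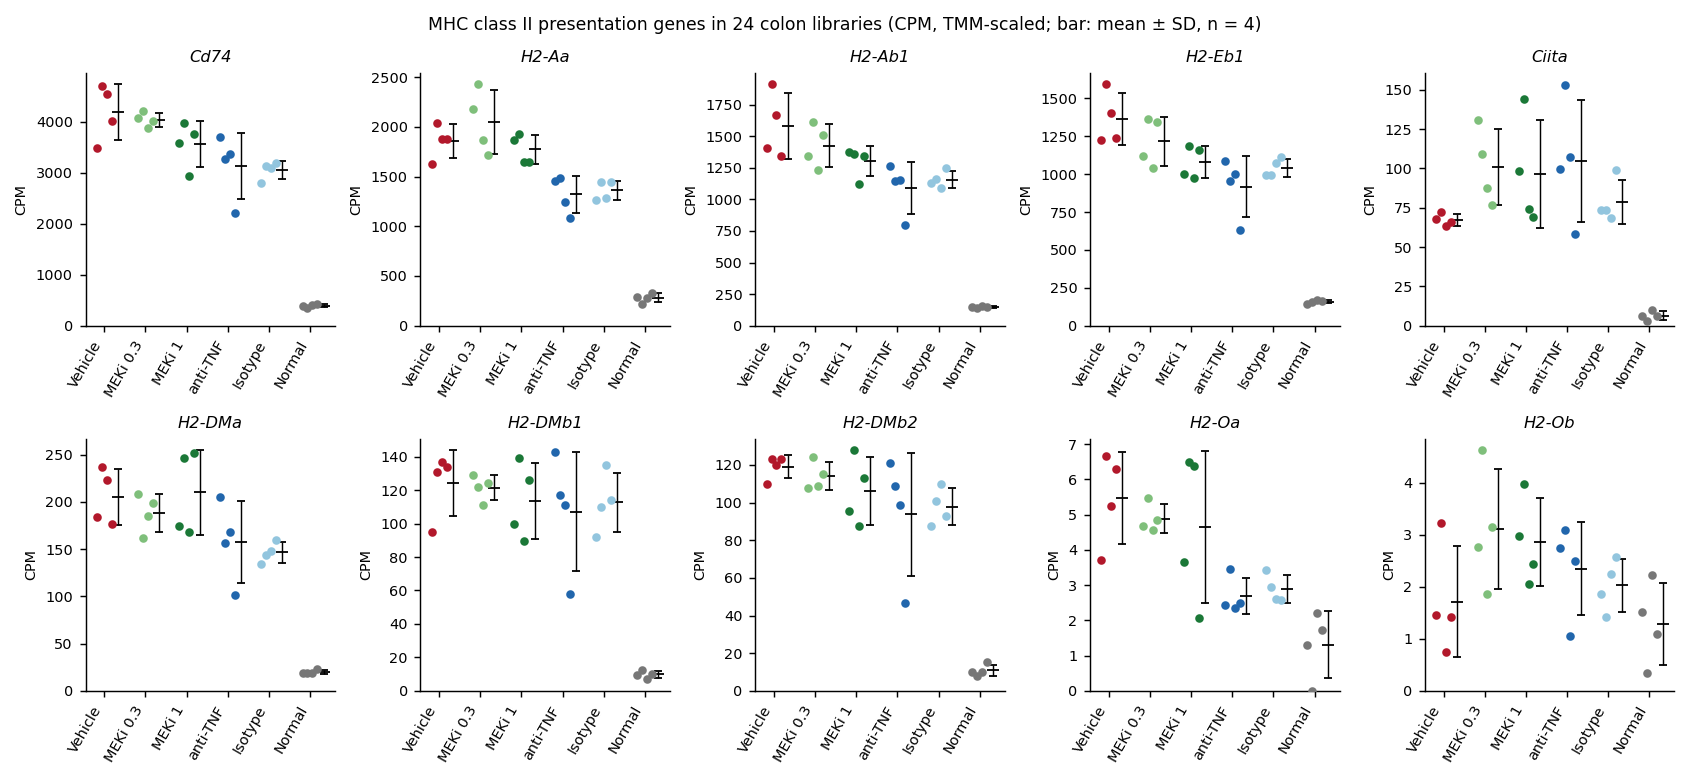
Level of each of the 10 class II genes in each library, in CPM, by group (points are libraries, bars show the group mean ± SD). Cd74 lies at 3486 CPM or more in every Vehicle library and at 418 CPM or less in every Normal library, and the colitis and Normal points run into each other for H2-Ob and, in 1 MEKi 1 library at 2.08 CPM, for H2-Oa.

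In transfer colitis 9 of the 10 class II genes rose in Vehicle colon relative to Normal colon, against a background of 23.1% of all tested genes that rose in the same comparison. The median log2 fold change over the 10 was 3.35, beside 0.00 over all tested genes. Invariant chain, classical chains, H2-DM and the transactivator all rose, H2-Oa rose less and H2-Ob was not called. Vehicle and Normal libraries did not overlap for the 9 genes that rose, a pattern seen in the higher direction for 21.9% of all tested genes. Since these are bulk samples, more cells of a type and more RNA per cell cannot be told apart. The rise of Cd74 and the count of 9 were known before the members were chosen.

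Cd74, the chaperone of the class II chains (chr18:60803848-60812652, plus strand), had 3486, 4692, 4545 and 4005 CPM in Vehicle libraries against 393, 342, 414 and 418 CPM in Normal libraries. Every Vehicle library was far above every Normal library, and Normal colon was not empty of the transcript. The log2 fold change was 3.42 (95% interval 3.09 to 3.75), a fold of 10.7 with bounds of 8.49 and 13.4.

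H2-Ab1, the β chain of H2-A, had 1406, 1911, 1667 and 1345 CPM in Vehicle libraries against 145, 137, 154 and 151 CPM in Normal libraries. Its partner α chain H2-Aa had 1626, 2040, 1876 and 1881 CPM in Vehicle libraries against 287, 218, 282 and 330 CPM in Normal libraries. Both were high in all Vehicle libraries, but the α chain started from a higher level in Normal colon. H2-Ab1 rose 10.8-fold (log2 fold change 3.43 ± 0.16 SE, adjusted p = 1.58e-13 by edgeR's quasi-likelihood test with Benjamini-Hochberg adjustment) and H2-Aa rose 6.64-fold, with bounds of 5.35 and 8.24 (2.73 ± 0.15, adjusted p = 4.03e-12 by the same test). H2-Eb1, the β chain of H2-E, had 1226, 1594, 1407 and 1238 CPM in Vehicle libraries against 144, 153, 167 and 164 CPM in Normal libraries, an 8.69-fold rise (3.12 ± 0.16, adjusted p = 6.53e-13 by edgeR). Its Normal libraries were close together, and none came near a Vehicle library.

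The H2-E α chain is annotated as H2-Ea-ps (chr17:34341959-34344645, minus strand), a polymorphic pseudogene in the C57BL/6 reference, whereas H-2d strains such as BALB/c and C.B-17 carry an expressed allele. It had 567, 749, 726 and 794 CPM in Vehicle libraries against 106, 76.4, 103 and 132 CPM in Normal libraries, a log2 fold change of 2.76 ± 0.17 (adjusted p = 1.62e-11 by edgeR). H2-Ea-ps was transcribed in these mice, and both α chain genes (2.73 for H2-Aa and 2.76 for H2-Ea-ps) rose less on the log2 scale than both β chain genes (3.43 for H2-Ab1 and 3.12 for H2-Eb1), a difference given without a test. How H-2d reads were matched to the reference sequence of these polymorphic genes was not tested. H2-Eb2, the neighbouring β gene, was at 0 counts in all Normal libraries and at 1.9 CPM or less elsewhere, and was not tested.

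H2-DM, the peptide editor, rose with the chains it serves. H2-DMa had 184, 237, 223 and 177 CPM in Vehicle libraries against 19.0, 19.2, 19.0 and 22.7 CPM in Normal libraries, a 10.2-fold rise (3.36 ± 0.19, adjusted p = 5.16e-12 by edgeR). H2-DMb1 had 94.8, 131, 137 and 134 CPM in Vehicle libraries against 9.52, 12.4, 7.39 and 10.2 CPM in Normal libraries, and H2-DMb2 had 110, 123, 120 and 123 CPM in Vehicle libraries against 9.95, 8.07, 10.2 and 15.3 CPM in Normal libraries. Both β genes were high in every Vehicle library and low in every Normal one. Their log2 fold changes were 3.67 ± 0.23 (adjusted p = 6.43e-11) and 3.44 ± 0.23 (adjusted p = 1.12e-10) by edgeR. H2-DMb1 and H2-DMb2 are close copies, and how shared reads were counted is not given, so the split between them is uncertain.

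H2-Oa, the α chain of the DM inhibitor, had 3.72, 6.65, 5.23 and 6.29 CPM in Vehicle libraries (18 to 35 counts) against 1.30, 0, 2.22 and 1.74 CPM in Normal libraries (0 to 12 counts). The lowest Vehicle library was above the highest Normal library, and the 0 in Normal replicate 2 allows up to 1.01 CPM. H2-Oa rose 3.83-fold, with bounds of 2.13 and 6.87 (1.94 ± 0.41, adjusted p = 0.000617 by edgeR). H2-Ob, its β partner, had 1.45, 3.23, 0.748 and 1.42 CPM in Vehicle libraries (3 to 17 counts) against 1.51, 0.336, 2.22 and 1.09 CPM in Normal libraries (1 to 12 counts). These ranges overlapped, and a change was not detectable at this depth: the log2 fold change of 0.35 had a 95% interval of -0.65 to 1.35 (adjusted p = 0.577 by edgeR).

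Ciita, the transactivator (chr16:10480059-10528418, plus strand), had 67.5, 72.3, 63.6 and 65.6 CPM in Vehicle libraries against 6.27, 3.03, 10.2 and 5.88 CPM in Normal libraries. The 4 Vehicle libraries were close together and all far above Normal. Its 10.2-fold rise (bounds 6.49 and 16.0, log2 fold change 3.35 ± 0.31, adjusted p = 6.62e-08 by edgeR) was of the size seen for Cd74, H2-Ab1 and H2-DMa. Ciita is transcribed from several promoters that differ between dendritic cells, B cells and interferon-treated cells, and a count per gene does not separate them.

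**Figure D2:**
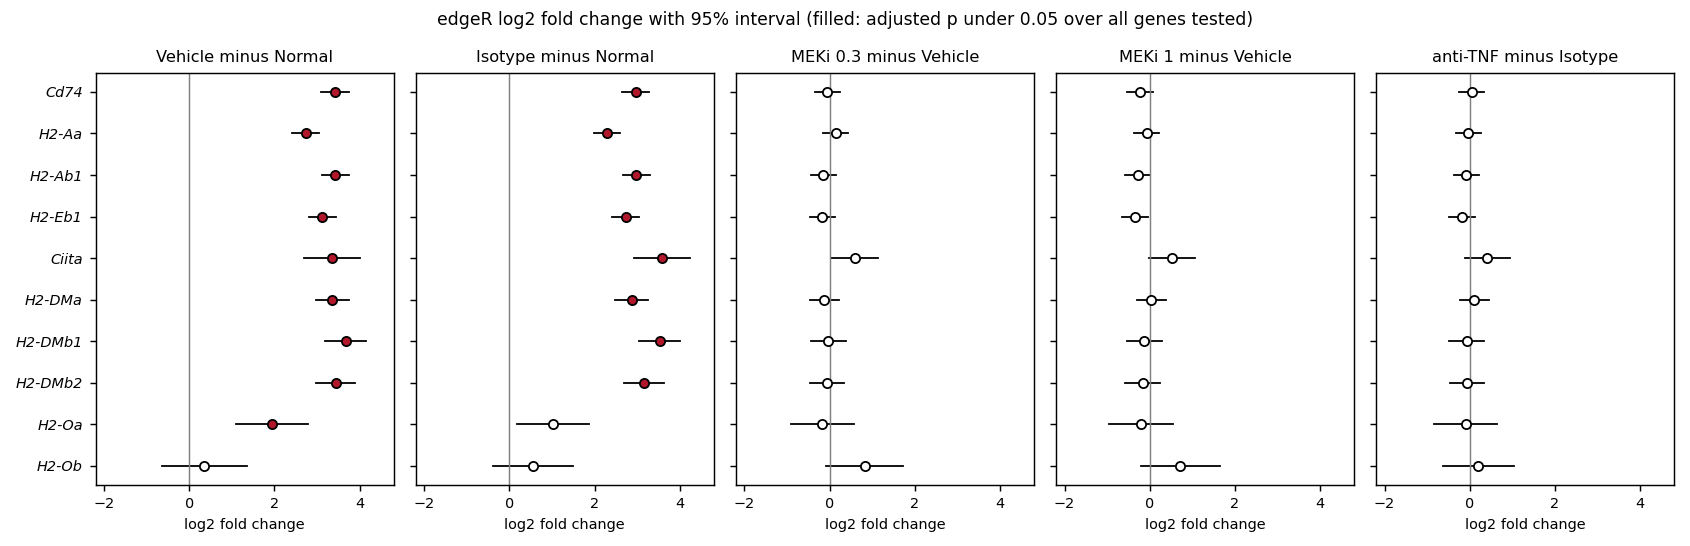
Log2 fold change of each class II gene with its 95% interval in each comparison. In the comparisons with Normal the intervals lie far to the right of 0 for every gene except H2-Oa and H2-Ob, and between treatment and control arms most of them include 0, with Ciita in MEKi 0.3 minus Vehicle (0.04 to 1.13) and H2-Eb1 in MEKi 1 minus Vehicle (-0.64 to -0.04) as exceptions among uncalled genes.

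The composition of the set differed between Vehicle and Normal colon in several ratios, given here as descriptions without a test. Cd74 counts per count of the 3 classical chains were 0.819 to 0.918 in Vehicle libraries and 0.647 to 0.688 in Normal libraries, and all 20 libraries of the 5 colitis groups lay above Normal, between 0.779 and 0.989. H2-Aa counts per H2-Ab1 count were 1.07 to 1.40 in Vehicle libraries and 1.59 to 2.18 in Normal libraries. Normal colon thus held relatively more α than β chain mRNA, although MEKi 0.3 libraries, at 1.14 to 1.62, reached into the Normal range. H2-DM counts per count of the 3 classical chains were 0.0884 to 0.0972 in Vehicle libraries and 0.0607 to 0.078 in Normal libraries, and 19 of the 20 colitis libraries lay above all Normal libraries, the exception being MEKi 0.3 replicate 2 at 0.0755. H2-O counts per H2-DM count were 0.0125 to 0.0201 in Vehicle libraries and 0.073, 0.00847, 0.121 and 0.0588 in Normal libraries, the second of which falls below all Vehicle libraries and rests on 1 H2-O count.

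**Figure D3:**
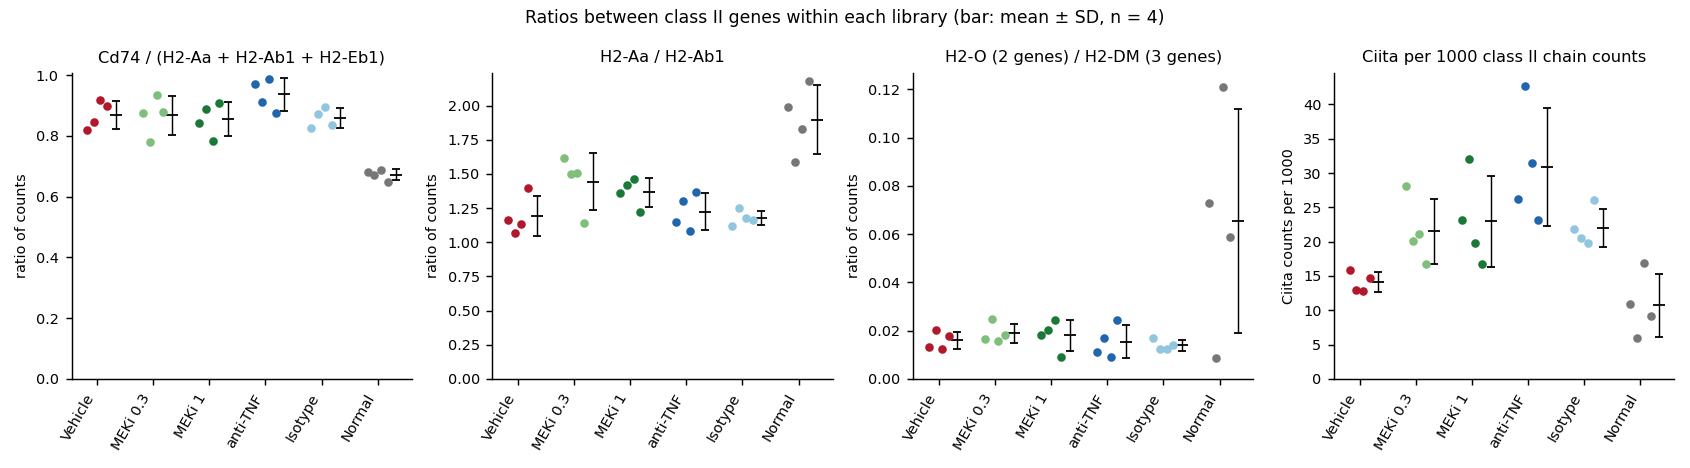
Ratios of counts between class II genes in each library, by group (points are libraries, bars show the group mean ± SD). Cd74 per classical chain count is 0.688 or less in every Normal library and 0.779 or more in every other library, while the ratio of H2-Aa to H2-Ab1 is 1.59 or more in every Normal library and 1.40 or less in every Vehicle library.

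Some of the genes that supply the interferon-γ signal to Ciita rose between Vehicle and Normal as well. Of 8 genes of that axis, 4 rose and 1 fell, where 23.1% of all tested genes rose and 23.3% fell. Ifng, the cytokine, had 64 counts over the Vehicle libraries and 0 over the Normal libraries, at least 19.7-fold higher with a floor of 3 counts over the group (adjusted p = 0.00101 by edgeR). Irf1, which binds the interferon-responsive Ciita promoter, averaged 564 ± 82.8 CPM in Vehicle and 186 ± 17.1 CPM in Normal (SD, n = 4 each), a change of 1.60 ± 0.17 on the log2 scale. The feedback inhibitor Socs1 averaged 45.3 ± 5.51 CPM in Vehicle and 1.47 ± 0.70 CPM in Normal (SD, n = 4 each), a change of 4.92 ± 0.76. The receptor chain Ifngr1 changed by -0.50 (adjusted p = 0.00386 by edgeR).

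Of 7 genes of the enhanceosome, the DNA-bound partners of CIITA, 2 rose (Rfx5 by 0.58 ± 0.20 and Nfyc by 0.30 ± 0.12 on the log2 scale) and 2 fell in Vehicle relative to Normal, shares close to the 23.1% and 23.3% of all tested genes. Nfya, the NF-Y subunit that contacts the Y box, averaged 25.7 ± 1.68 CPM in Vehicle and 38.0 ± 1.61 CPM in Normal (SD, n = 4 each), and Rfxank, an RFX subunit, averaged 19.3 ± 1.68 CPM in Vehicle and 33.0 ± 6.68 CPM in Normal (SD, n = 4 each). Their adjusted p-values were 0.00125 and 0.00135 by edgeR. The 2 rises were not called without Normal replicate 2, or in a fit of these groups alone with the replicate number as a block, which left 2 calls, both of genes that fell.

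Of 10 genes of endosomal processing, 6 rose and 0 fell in Vehicle relative to Normal. Over all tested genes 23.1% rose and 23.3% fell. The cathepsins Ctsz, Ctsc and Ctsd rose by 1.14 ± 0.17, 1.42 ± 0.22 and 0.62 ± 0.13 on the log2 scale, and the asparagine endopeptidase Lgmn rose by 0.84 ± 0.19. Ctss, the protease best known for trimming the invariant chain and named after its values were seen, averaged 339 ± 80 CPM in Vehicle and 272 ± 48.2 CPM in Normal (SD, n = 4 each) and was not called (adjusted p = 0.102 by edgeR). The largest change of the list, 1.42 for Ctsc, was below that of each of the 9 class II members that rose. Of 5 genes of class II turnover and surface trafficking, 2 rose and 3 fell, beside the same shares of all tested genes. The leukocyte tetraspanin Cd37 rose by 1.83 ± 0.26, and March8, a ubiquitin ligase that can remove class II molecules from the surface, fell by 0.75, to 52.5 ± 7.68 CPM in Vehicle against 88.7 ± 6.03 CPM in Normal (SD, n = 4 each). The tetraspanins Cd63 and Cd9 fell by 0.54 and 0.45.

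Of 6 costimulatory and checkpoint ligands of presenting cells, 5 rose and 0 fell, where 23.1% of all tested genes rose and 23.3% fell. Cd274, which encodes PD-L1, rose by 2.90 ± 0.29 (adjusted p = 8.73e-08), and the costimulators Cd40, Cd80 and Cd86 rose by 2.90, 2.96 and 1.89 on the log2 scale by edgeR. Both T cell receptors for class II molecules rose as well: Cd4 by 2.45 and the inhibitory receptor Lag3 by 2.53.

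**Figure D4:**
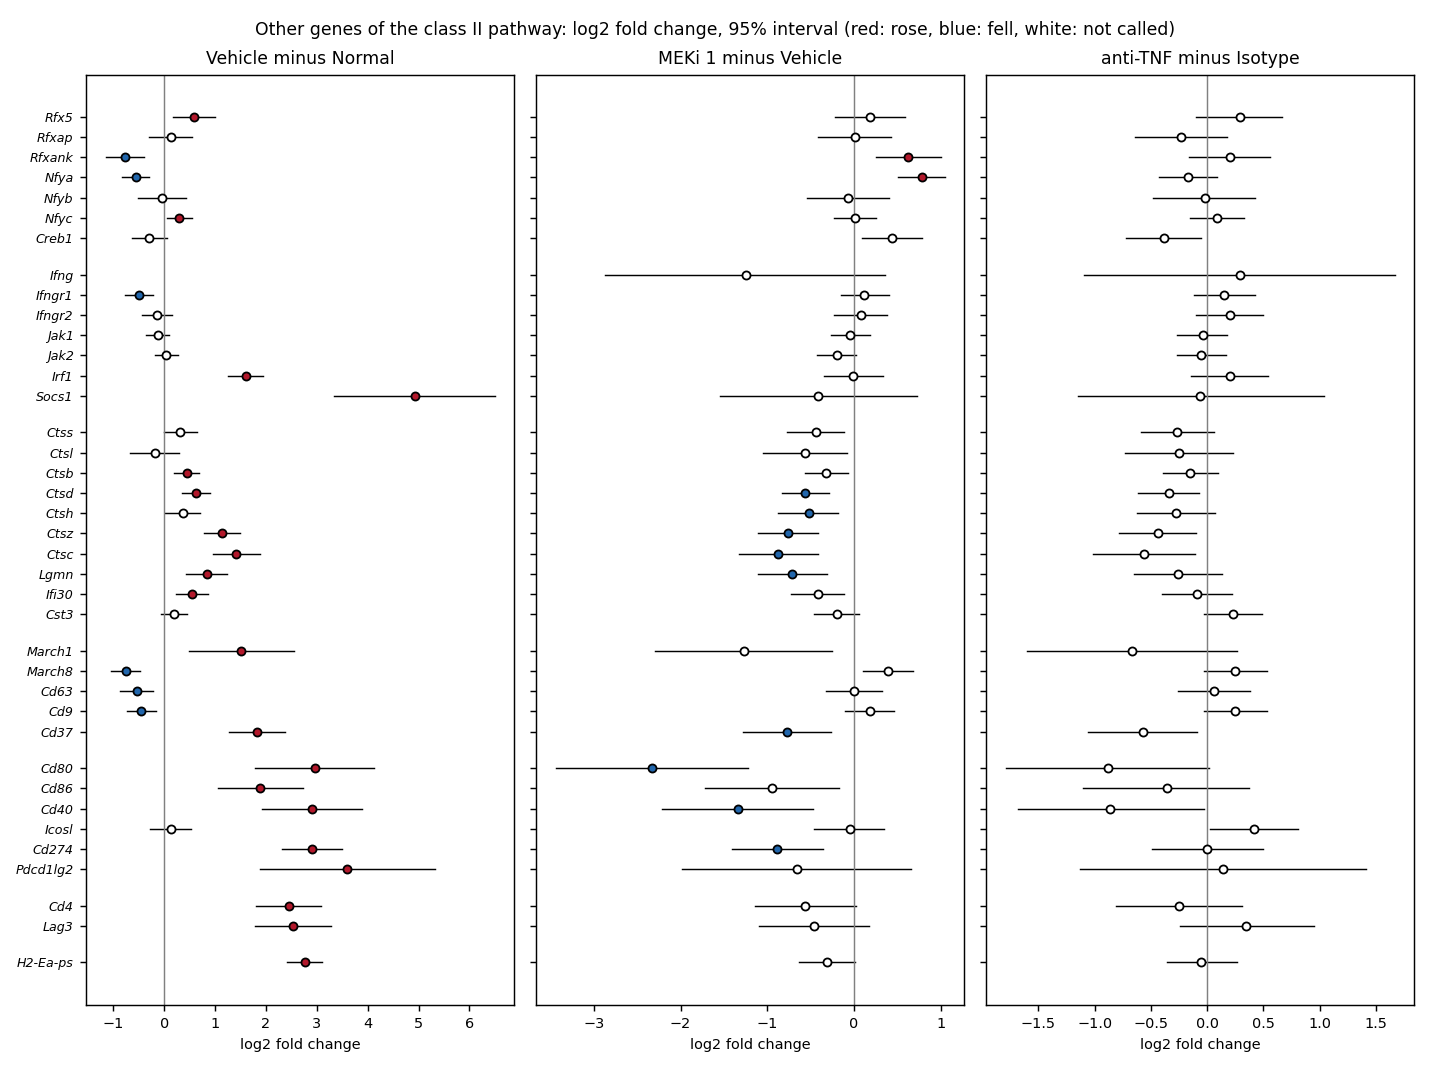
Log2 fold change of genes of the pathway lists around class II presentation, with 95% intervals, for 3 comparisons. Ifng is left out of the Vehicle minus Normal panel because its Normal libraries are at 0 counts. Irf1 and Socs1 of the interferon axis stand to the right in Vehicle minus Normal and are not called in MEKi 1 minus Vehicle, where most of the processing and costimulation genes stand to the left.

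Markers of presenting cells and of other cells were also compared between Vehicle and Normal. Of all tested genes 23.1% rose and 23.3% fell. Of 9 measured monocyte and macrophage markers 7 rose, and their summed level was 1095 to 1335 CPM in Vehicle libraries and 355 to 372 CPM in Normal libraries. Of 10 dendritic cell markers 5 rose, summing to 315 to 348 CPM in Vehicle libraries and 92.8 to 125 CPM in Normal libraries. The gap between the groups was narrower for both lists than for Cd74. Of 10 T cell markers 9 rose (144 to 187 CPM in Vehicle libraries, 13 to 16.3 CPM in Normal libraries, with Cd3d, Cd3e and Cd5 at 0 in Normal). B cell markers were low in both: 14.6 to 23.1 CPM summed over 10 genes in Vehicle libraries and 0.649 to 2.35 CPM in Normal libraries, with Cr2 at 0 in Vehicle and Pax5, Cr2 and Fcer2a among those at 0 in Normal, and the 3 that passed the filter rose. Epithelial markers summed to 12510 to 18400 CPM in Vehicle libraries and 17256 to 18578 CPM in Normal libraries. Of these 10 markers 2 rose and 3 fell, near the shares of all tested genes. All 6 smooth muscle markers fell (1280 to 2679 CPM in Vehicle libraries, 6253 to 7298 CPM in Normal libraries). The part of these shifts in the class II result was not tested.

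**Figure D5:**
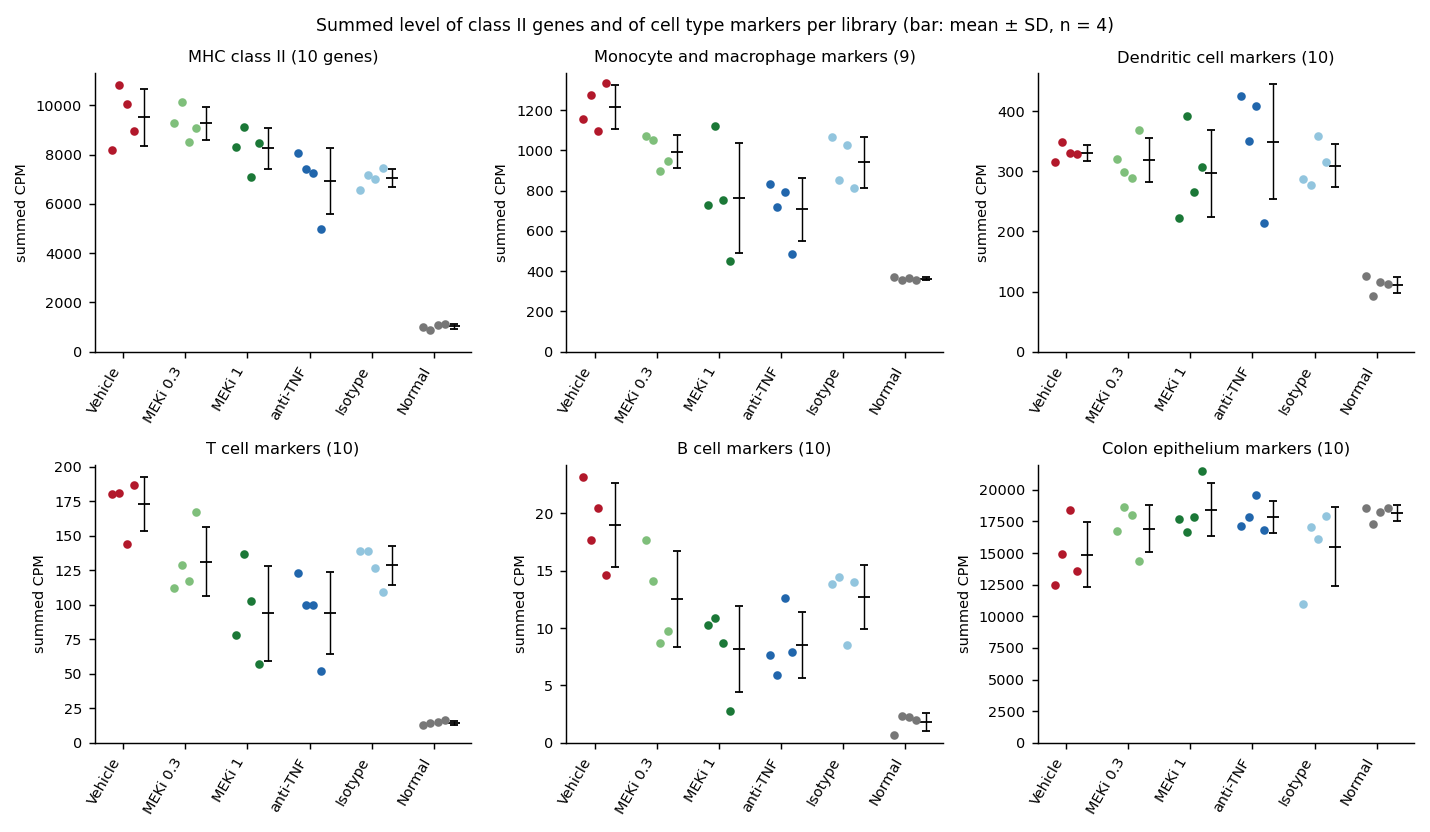
Summed CPM of the marker lists of presenting cells and other cells in each library, by group (points are libraries). Monocyte and macrophage markers are 1095 CPM or more in every Vehicle library and 372 CPM or less in every Normal library, and MEKi 1 libraries spread from 450 to 1120 CPM.

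The Isotype arm gave the same comparison with Normal under an injected control antibody, and it shares the Normal libraries with the Vehicle comparison. Of the 10 genes, 8 rose relative to Normal, where 20.9% of all tested genes rose, with a median log2 fold change of 2.92. Cd74 had 2795, 3141, 3089 and 3181 CPM in Isotype libraries against 393, 342, 414 and 418 CPM in Normal libraries, a change of 2.96 ± 0.16 on the log2 scale (adjusted p = 2.86e-12 by edgeR). The Isotype libraries were close together and all far above Normal. H2-Oa had 3.42, 2.95, 2.60 and 2.58 CPM in Isotype libraries, all above the Normal libraries of 1.30, 0, 2.22 and 1.74 CPM, but its change of 1.02 ± 0.41 missed the threshold (adjusted p = 0.0509 by edgeR). It was called by DESeq2 (adjusted p = 0.0313), with library size as the only scaling (adjusted p = 0.0472) and without Normal replicate 3 (1.37, adjusted p = 0.0273).

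Treatment with the MEK inhibitor left all 10 class II genes uncalled at both doses. At 1 mg/kg, 0 of 10 members passed the threshold in edgeR and 0 in DESeq2 relative to Vehicle, where 10.6% of all tested genes were called. That background moved with single libraries, from 15 genes that rose and 28 that fell without MEKi 1 replicate 1 to 1332 and 1037 without MEKi 1 replicate 2, and 0 members were called with any 1 library left out. At an unadjusted p under 0.05 the count was 1 of 10, against 30.4% of all tested genes. The median log2 fold change of the members was -0.15, beside 0.00 over all tested genes. For Cd74 the fold was 0.853 with bounds of 0.693 and 1.05, so that a fold below 0.693 lies outside the interval. In library values Cd74 had 3486, 4692, 4545 and 4005 CPM in Vehicle, 4065, 4213, 3881 and 4011 CPM in MEKi 0.3 and 3581, 3984, 2934 and 3768 CPM in MEKi 1. The dose groups overlapped one another, and all 12 libraries were above the highest Normal library, at 418 CPM.

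The classical chains gave the same picture. H2-Aa averaged 1856 ± 171 CPM in Vehicle, 2047 ± 321 CPM in MEKi 0.3 and 1772 ± 147 CPM in MEKi 1 (SD, n = 4 each). H2-Ab1 averaged 1582 ± 260 CPM in Vehicle, 1425 ± 169 CPM in MEKi 0.3 and 1302 ± 118 CPM in MEKi 1 (SD, n = 4 each). H2-Eb1 came nearest to a difference: it had 999, 1186, 975 and 1161 CPM in MEKi 1 libraries against 1226, 1594, 1407 and 1238 CPM in Vehicle libraries. The MEKi 1 libraries were all below the lowest Vehicle library, as for 8.83% of all tested genes, but the change of -0.34 (95% interval -0.64 to -0.04) was not called (adjusted p = 0.118 by edgeR).

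H2-DM, too, was uncalled at both doses. H2-DMa averaged 205 ± 29.2 CPM in Vehicle, 189 ± 20.1 CPM in MEKi 0.3 and 210 ± 45.2 CPM in MEKi 1 (SD, n = 4 each), and the MEKi 1 minus Vehicle change was 0.03 on the log2 scale with a 95% interval of -0.31 to 0.38. The changes of H2-DMb1 and H2-DMb2 were -0.13 and -0.16, with adjusted p-values of 0.695 and 0.594 by edgeR. H2-Oa had 3.67, 6.49, 6.39 and 2.08 CPM in MEKi 1 libraries, which spread over and below the Vehicle range of 3.72 to 6.65 CPM. H2-Ob had 2.98, 3.98, 2.05 and 2.43 CPM in MEKi 1 libraries, at 7 to 19 counts, overlapping Vehicle, and its change of 0.72 ± 0.45 was not called (adjusted p = 0.282 by edgeR).

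Ciita was higher than in Vehicle in most treated libraries, without a call. It had 67.5, 72.3, 63.6 and 65.6 CPM in Vehicle, 131, 109, 87.3 and 76.4 CPM in MEKi 0.3 and 98.3, 144, 74.2 and 69.3 CPM in MEKi 1. All 4 MEKi 0.3 libraries were above the highest Vehicle library, as for 4.33% of all tested genes, and 3 of 4 MEKi 1 libraries were. The change at 0.3 mg/kg was 0.59 ± 0.26 (95% interval 0.04 to 1.13, unadjusted p = 0.0366, adjusted p = 0.256 by edgeR), and at 1 mg/kg it was 0.52 ± 0.26 (adjusted p = 0.184 by edgeR). Offsets for transcript length gave 0.45 and 0.38 in place of these values. At 0.3 mg/kg the other 9 members were not called either, by edgeR or DESeq2, where 0.00677% of all tested genes were by edgeR, and changed by -0.17 to 0.82 on the log2 scale, with H2-Ob at the upper end. In a fit of MEKi 0.3 and Vehicle alone with the replicate number as a block, 227 genes rose and 178 fell in place of 1 and 0, but still 0 of the 10 members were called, with Ciita closest (0.56, adjusted p = 0.0515 by edgeR).

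The 2 doses were compared directly as well. Of the 10 members 0 were called by edgeR or by DESeq2, with 0.0% of all tested genes called by edgeR and 0 members at an unadjusted p under 0.05, against 4.34% of all tested genes. The changes of MEKi 1 relative to MEKi 0.3 ran from -0.21 for H2-Aa to 0.15 for H2-DMa on the log2 scale.

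While the members stayed uncalled, genes around them passed the threshold at 1 mg/kg; whether these lists differed from the members was not tested. Of the 10 processing genes 0 rose and 5 fell in MEKi 1 relative to Vehicle, where 6.08% of all tested genes rose and 4.51% fell. Ctsz averaged 272 ± 28.8 CPM in MEKi 1 and 461 ± 43.8 CPM in Vehicle (SD, n = 4 each; log2 fold change -0.76 ± 0.17, adjusted p = 0.0125 by edgeR), and Ctsd averaged 385 ± 19.9 CPM in MEKi 1 and 568 ± 108 CPM in Vehicle (SD, n = 4 each; -0.56 ± 0.13, adjusted p = 0.0156). Ctsc, Lgmn and, named after its values were seen, Ctsh also fell, by 0.87, 0.71 and 0.52. Ctss averaged 249 ± 39.1 CPM in MEKi 1 and 339 ± 80 CPM in Vehicle (SD, n = 4 each) and was not called (adjusted p = 0.067 by edgeR). The count of 5 depended on single libraries: it was 0 without Vehicle replicate 4, 0 without MEKi 1 replicate 1, 1 without Vehicle replicate 1, 1 without MEKi 1 replicate 3 and 2 without both pancreas-rich libraries, and 8 by DESeq2.

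Of the 6 costimulatory and checkpoint genes 0 rose and 3 fell, where 6.08% of all tested genes rose and 4.51% fell. Cd80, a ligand of CD28, had 10 counts over the MEKi 1 libraries and 62 over the Vehicle libraries, averaging 0.585 ± 0.427 CPM in MEKi 1 and 3.17 ± 1.53 CPM in Vehicle (SD, n = 4 each; -2.33 ± 0.54, adjusted p = 0.0148 by edgeR). Cd274 averaged 19.4 ± 6.07 CPM in MEKi 1 and 36.1 ± 6.50 CPM in Vehicle (SD, n = 4 each; -0.89 ± 0.25, adjusted p = 0.0313 by edgeR), and Cd40 averaged 5.70 ± 3.07 CPM in MEKi 1 and 14.6 ± 3.27 CPM in Vehicle (SD, n = 4 each; -1.34 ± 0.42, adjusted p = 0.0445 by edgeR). This count was 0 without Vehicle replicate 4, without MEKi 1 replicate 1 or without both pancreas-rich libraries, 1 without Vehicle replicate 1 or 2 or MEKi 1 replicate 3 or 4, and 5 without MEKi 1 replicate 2. Of the 5 turnover genes 1 fell, Cd37, by 0.77 (adjusted p = 0.0461 by edgeR), a call that leaving out 6 of the 8 libraries in turn ended.

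Of the 7 enhanceosome genes 2 rose and 0 fell in MEKi 1 relative to Vehicle. Over all tested genes 6.08% rose and 4.51% fell. Nfya averaged 44.1 ± 5.55 CPM in MEKi 1 and 25.7 ± 1.68 CPM in Vehicle (SD, n = 4 each; 0.78 ± 0.13, adjusted p = 0.00653 by edgeR), and Rfxank averaged 29.8 ± 6.28 CPM in MEKi 1 and 19.3 ± 1.68 CPM in Vehicle (SD, n = 4 each; 0.62 ± 0.18, adjusted p = 0.034 by edgeR). Vehicle was the lowest group for Nfya, which averaged 40.6 ± 6.24 CPM in MEKi 0.3, 33.9 ± 3.99 CPM in anti-TNF, 38.1 ± 3.57 CPM in Isotype and 38.0 ± 1.61 CPM in Normal (SD, n = 4 each). With single libraries or both pancreas-rich libraries left out, Nfya was called in 9 of 9 settings (adjusted p from 0.0022 to 0.0363) and Rfxank in 1 of 9. The interferon-γ axis was not called in any of its 8 genes, by edgeR or DESeq2, and 0 had an unadjusted p under 0.05. Jak2 changed by -0.20 (adjusted p = 0.207) and Irf1 by -0.01 on the log2 scale by edgeR. Ifng had 23 counts over the MEKi 1 libraries and 64 over the Vehicle libraries (-1.25 ± 0.77, adjusted p = 0.28 by edgeR). Cd4 and Lag3 changed by -0.56 and -0.46 (adjusted p = 0.177 and 0.313 by edgeR).

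Some cell type markers were called as well. Of all tested genes 6.08% rose, 4.51% fell and 30.4% had an unadjusted p under 0.05 by edgeR. In MEKi 1 relative to Vehicle 3 of 9 monocyte and macrophage markers fell (450 to 1120 CPM summed in MEKi 1 libraries, 1095 to 1335 CPM in Vehicle libraries) and 5 of 10 T cell markers fell (57.2 to 137 CPM in MEKi 1 libraries, 144 to 187 CPM in Vehicle libraries). Of 10 dendritic cell markers 0 were called, with 2 at an unadjusted p under 0.05 by edgeR (222 to 392 CPM in MEKi 1 libraries, 315 to 348 CPM in Vehicle libraries). Of the 3 tested B cell markers 1 fell (2.77 to 10.9 CPM in MEKi 1 libraries, 14.6 to 23.1 CPM in Vehicle libraries, over 10 genes). Epithelial markers summed to 16647 to 21464 CPM in MEKi 1 libraries and 12510 to 18400 CPM in Vehicle libraries. Of these 10 markers 0 were called and 3 had an unadjusted p under 0.05 by edgeR, near the share of all tested genes. The part of these markers in the member levels was not tested.

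Antibody to TNF gave no called class II gene relative to its isotype control. The count was 0 of 10 by edgeR and 0 by DESeq2, with 0.0203% of all tested genes called, and 0 of 10 at an unadjusted p under 0.05, against 11.2% of all tested genes. Cd74 had 3696, 3271, 3372 and 2200 CPM in anti-TNF libraries against 2795, 3141, 3089 and 3181 CPM in Isotype libraries. Anti-TNF replicate 4 was below all Isotype libraries and the other 3 anti-TNF libraries were above them. The log2 fold change was 0.04 with a 95% interval of -0.26 to 0.34, and 0.17 without anti-TNF replicate 4 (adjusted p = 0.989 by edgeR).

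Ciita had 99.6, 153, 107 and 58.4 CPM in anti-TNF libraries against 73.8, 73.7, 68.2 and 99.0 CPM in Isotype libraries. Here too replicate 4 was the lowest and the other 3 lay above Isotype, and the change of 0.41 ± 0.26 was not called (adjusted p = 0.575 by edgeR, and 0.74 without replicate 4, at a change of 0.60). The direction depended on the naming of 4 antibody libraries: Ciita changed by -0.26 under the names of the series table and by 0.17 without those 4, and Cd74 by -0.12 and -0.09, all uncalled. Anti-TNF replicate 4 was the lowest of its group for all members other than H2-Oa and H2-Ob, and it also held the lowest summed markers of the group for dendritic cells (214 CPM, against 350 to 425 in the other 3), monocytes and macrophages (485 CPM, against 719 to 831) and T cells (52.4 CPM), and the highest for smooth muscle (4602 CPM), whose part in its class II levels was not tested. The other members changed by -0.18 (H2-Eb1) to 0.20 (H2-Ob). None of the pathway lists had a called gene by edgeR in the fit of all 24 libraries or by DESeq2. At an unadjusted p under 0.05 by edgeR there were 3 of 10 processing genes, 2 of 6 costimulatory genes, 1 of 7 enhanceosome genes, 1 of 5 turnover genes and 0 of 8 genes of the interferon-γ axis. The nearest were Ctsz at -0.44 (adjusted p = 0.319), Ctsd at -0.34 (adjusted p = 0.333), Cd37 at -0.57 (adjusted p = 0.356) and Creb1 at -0.38 (adjusted p = 0.37) by edgeR. Rfx5 changed by 0.29, Icosl by 0.42, Cd40 by -0.86, Irf1 and Ifngr2 by 0.20 each, March8 by 0.25, Cd4 by -0.25 and Lag3 by 0.35, all uncalled.

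The effect of the inhibitor at 1 mg/kg over Vehicle was set against the effect of anti-TNF over Isotype in one interaction term. Of the 10 members 0 were called different by edgeR or by DESeq2, with 0.0135% of all tested genes called and 0 members at an unadjusted p under 0.05, against 4.93% of all tested genes. The differences ran from -0.27 for Cd74 to 0.52 for H2-Ob on the log2 scale, with a median of -0.09. Nfya, which rose with the inhibitor, differed by 0.95 ± 0.18 and was not called by edgeR (adjusted p = 0.0746), whereas DESeq2 called it, as 1 of the 7 enhanceosome genes.

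The control arms were compared with each other as well. Isotype libraries were below all Vehicle libraries for 6 members, Cd74, H2-Aa, H2-Ab1, H2-Eb1, H2-DMa and H2-Oa, a pattern seen for 6.69% of all tested genes. All 6 had an unadjusted p under 0.05, against 17.4% of all tested genes, but 0 of 10 were called by edgeR, where 2.99% of all tested genes were. Cd74, H2-Aa and H2-Ab1 each changed by -0.45 on the log2 scale, with adjusted p-values of 0.0892, 0.0842 and 0.0798, and H2-Oa by -0.92 ± 0.36 (adjusted p = 0.168). DESeq2 called 4 of them lower, with 2.97% of all genes it tested called lower: Cd74, H2-Aa, H2-Ab1 and H2-Oa, with adjusted p-values of 0.0191, 0.0176, 0.0190 and 0.0479. Offsets for transcript length reduced the changes of Cd74 and H2-Aa to -0.27 and -0.21. H2-Ea-ps was called by edgeR: it had 450, 466, 418 and 505 CPM in Isotype libraries against 567, 749, 726 and 794 CPM in Vehicle libraries (-0.62 ± 0.15, adjusted p = 0.0277). That call was lost in 6 of 8 fits with 1 library left out (adjusted p from 0.022 to 0.105 over the 8) and in 6 of 12 other settings, with length offsets (-0.36) and without the 4 antibody libraries of doubtful naming (adjusted p = 0.176) among them, and the names of the series table gave 0.25. Isotype and Vehicle differed in route, agent and library depth together, which cannot be told apart.

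Ciita did not follow the chains here, at 0.23 ± 0.26 between Isotype and Vehicle. In a ratio chosen after the data were seen, Ciita counts per 1000 counts of the 3 classical chains lay between 12.8 and 15.9 for Vehicle, between 16.7 and 28.1 for MEKi 0.3, between 16.7 and 32.1 for MEKi 1, between 23.2 and 42.7 for anti-TNF, between 19.8 and 26 for Isotype and between 5.95 and 16.9 for Normal. All 16 libraries of the other colitis groups, Isotype included, were above the 4 Vehicle libraries. The ratio compares a long transcript (6007 bases) with short ones (1128 to 1669 bases). H2-DM counts per classical chain count showed no such separation of Vehicle from the other colitis groups. That ratio was 0.0884 to 0.0972 in Vehicle and 0.0755 to 0.123 over the 4 other colitis groups. H2-DM transcripts are short as well (1404 to 2005 bases), so their ratio cannot show an effect of length.

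Under every treatment most class II genes stayed far above Normal, in comparisons that all share the Normal libraries. Relative to Normal, 9 of 10 members were higher in MEKi 0.3 (10.8% of all tested genes), 9 in MEKi 1 (8.06%) and 8 in anti-TNF (12.5%), with median log2 fold changes of 3.26, 3.17 and 2.94. Ciita was higher by 3.93, 3.87 and 3.99 in those groups, and H2-Oa by 1.77 (adjusted p = 0.00369), 1.73 (adjusted p = 0.00787) and 0.92 (adjusted p = 0.11, not called) by edgeR. H2-Ob was called in none of them. Summed over the 10 members, levels were 8524 to 10151 CPM in MEKi 0.3 libraries, 7108 to 9126 CPM in MEKi 1, 4983 to 8076 CPM in anti-TNF, 6577 to 7456 CPM in Isotype and 894 to 1121 CPM in Normal.

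Genes with a profile like that of Cd74 were ranked over the 24 libraries by the root mean square difference of log2 CPM, each gene centred on its own mean. Predicted genes were left out of the ranking. Among 13201 genes ranked, members included, 6 members came closer to Cd74 than any other, from H2-Ab1 at 0.10 to H2-Aa at 0.28 log2 units. The nearest genes outside the set were Gbp8 (0.29), an interferon-inducible GTPase, Psmb9 (0.29) and Psmb8 (0.33), subunits of the immunoproteasome, H2-Ea-ps (0.32) and Tap1 (0.32), the peptide transporter of the class I pathway. Ciita had rank 54 at 0.49, H2-Oa rank 389 at 0.80 and H2-Ob rank 1815 at 1.05. Nearest to Ciita outside the set were Cd177 (0.44), a neutrophil surface protein, Nlrc5 (0.44), the class I transactivator, Btnl2 (0.46), a butyrophilin-like gene, Tap1 (0.50) and the GTPase gene Irgm2 (0.50), with the members H2-DMb2 and Cd74 (0.49 each) ahead of Tap1 and Irgm2. The likeness is a description over libraries that share the step between colitis and Normal: in Vehicle relative to Normal Gbp8 rose by 3.77 ± 0.26, Nlrc5 by 4.44 ± 0.36 and Btnl2 by 3.71 ± 0.30 on the log2 scale by edgeR.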

How the data were processed

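RNA of 24 colon libraries in 6 groups was sequenced by the authors on Ion Torrent chemistry, after poly(A) enrichment and cutting with RNase III, per the labels. The deposited files hold raw counts for each gene symbol, with mm10 named as the build in the submitters' processing notes. Aligner, counter, annotation, strand use and the treatment of shared reads: not given in the sources used here. The labels do not call the replicates separate mice. P-values therefore reflect only how far these samples spread, and that spread may be technical.

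Groups come from the sample each file belongs to. A series-wide table repeats these columns, but 16 of its 24 column names point to a different sample than the matching file does. Cd3d, Cd3e and Cd3g together had 146 to 227 counts in Vehicle and 0 to 2 in Normal by the files, against 1 to 146 in Vehicle and 0 to 139 in Normal by the table's names. For 4 antibody libraries (anti-TNF replicates 1 and 2, Isotype replicates 3 and 4) the counts cannot tell which naming holds.

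Tests used edgeR 4.0.16 (R 4.3.3) on all 24 libraries in 1 fit, after filterByExpr and TMM scaling, with robust quasi-likelihood F tests, Benjamini-Hochberg adjustment over 14773 genes in each comparison and a threshold of 0.05. The common dispersion was 0.0539 and the median prior df 6.53. An SE is the size of the log2 fold change over the root of F, and intervals are 95%. Alternatives were DESeq2 1.42.0, RLE factors, unadjusted library sizes, no filter, a minimum mean of 5 CPM, fits of only the groups compared, the replicate number as a block, transcript length offsets (lowess span 0.3), the table's names and leaving out each library. Omission of the 4 antibody libraries and of the 2 pancreas-rich libraries was added after seeing the data. Coordinates and lengths are from GENCODE M21, which matched 39469 symbols, and promoter windows from RefSeq. The fits were tested on simulated data.

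Some genes of the lists stay in the counts and sums but are not reported here by name. The members, lists and markers were chosen with earlier results of these data known. Named were all members, of each pathway list up to 4 genes with the smallest p in Vehicle minus Normal and up to 2 in MEKi 1 minus Vehicle and in anti-TNF minus Isotype, and the 5 genes most like Cd74 and Ciita by log2 CPM (prior count 2). For MEKi 0.3 and Vehicle all 4 same-numbered pairs deviated together (correlations 0.126, 0.125, 0.167 and 0.184, against a threshold of 0.1), a pattern read from the data and not from the labels. MEKi 0.3 replicates 1, 3 and 4 correlated most with the Vehicle library of their own number, and replicate 2 with one of another number. No 2 replicates were duplicates.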

Additional observations from a re-analysis of the deposited data

Results flagged for a closer look

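Values apart from the rest of their group were sought in 96 groups of 4 libraries, and 5 stood out, about what chance gives (1 in 20). H2-Ab1 was lowest in MEKi 1 replicate 3, at 1126 CPM, with a gap to the next library of 0.877 of the range. H2-DMa was highest in Normal replicate 4, at 22.7 CPM (0.958 of the range). H2-DMb1 was lowest in Vehicle replicate 1, at 94.8 CPM (0.862). H2-Oa was highest in anti-TNF replicate 2, at 3.45 CPM (0.876). The ratio of H2-DM counts to counts of the classical chains was lowest in MEKi 0.3 replicate 2, at 0.0755 (0.922).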

How the results depend on the processing

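With any 1 library left out, the number of members called was 9 in Vehicle minus Normal and in MEKi 1 minus Normal, 8 to 9 in Isotype minus Normal, 9 to 10 in MEKi 0.3 minus Normal, 8 in anti-TNF minus Normal and 0 in each comparison between colitis groups, the difference of effects included. Over these omissions 958 of 960 member fold changes kept their side of the threshold. The 2 that crossed it did so without Normal replicate 3. They were H2-Oa in Isotype minus Normal, given above, and H2-Ob in MEKi 0.3 minus Normal (1.56, adjusted p = 0.0458 by edgeR). The sign changed in 48 of the 960, all uncalled with and without the omission and of at most 0.35 on the log2 scale before it (H2-Ob in Vehicle minus Normal). Under the other settings the sign changed in 74 of 1192, of which 66 were uncalled in both. The 8 that involved a call are named below. Under the other settings 116 of 122 counts of members stayed within 1.5 times. The exceptions were the 4 calls of DESeq2 in Isotype minus Vehicle and the names of the series table, under which 0 members were called in all 5 comparisons with Normal. Those names reversed Vehicle minus Normal for Cd74 (-0.05), H2-Aa (-0.29), H2-Ab1 (-0.09), H2-Eb1 (-0.03), H2-DMb1 (-0.13), H2-DMb2 (-0.02) and Ciita (-0.49), and anti-TNF minus Normal for H2-Aa (-0.01), since they place libraries with and without T cells in the same group.

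The replicate number as a block, in fits of only the groups compared, changed 1 other member call: H2-Oa in MEKi 1 minus Normal (1.71, adjusted p = 0.112 by edgeR). Outside MEKi 0.3 against Vehicle no comparison had all same-numbered pairs correlated above 0.1. Counts over all genes were less stable than those of the members. MEKi 1 minus Vehicle had 898 genes that rose and 667 that fell, against 382 and 391 with no filter. MEKi 0.3 minus Vehicle had 1 and 0, against 73 and 19 by DESeq2, and 701 and 429 without MEKi 0.3 replicate 4. Anti-TNF minus Isotype had 1 and 2, against 24 and 61 by DESeq2 and 112 and 165 with the replicate number as a block in only these groups, where 3 of 4 same-numbered pairs correlated above 0.1 and 1 processing gene, Ctsc, was called lower. Isotype minus Vehicle had 195 and 247, against 407 and 395 by DESeq2 and 8 and 13 with length offsets. The causes were not tested. Depth limits the H2-O genes, read by 1 to 35 counts where detected.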
